A study of Mus musculus with 15 samples.

Results

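The transcripts of the period and cryptochrome clock repressors were measured in mouse heart after 5 months of methamphetamine (meth) or phosphate-buffered saline (PBS). The members were the period genes Per1, Per2 and Per3, the cryptochrome genes Cry1 and Cry2, and Ciart. Their probes were found by matching the accession of each non-control probe to these symbols or their older names. This gave 6 of the 18350 genes with a symbol on the array and 9 of its 41174 probes, and all 9 probes were tested. In hearts of mice given meth, the brighter of the 2 Per2 probes was higher than in hearts of mice given PBS. The difference was 3.92-fold in males and 4.12-fold in females. Per1, Per3, Cry2 and Ciart were higher in males, and in females had changes of the same sign that did not pass the test. Cry1 did not pass the test in any comparison.

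The circadian clock of most cells, cardiomyocytes included, is a feedback loop of transcription. CLOCK and BMAL1 (the product of Arntl) bind E-box sequences and switch on the Per, Cry and Ciart genes. PER and CRY proteins then enter the nucleus together and block CLOCK and BMAL1, so that the Per transcripts and Arntl peak at roughly opposite times of day. Ciart, whose product also represses CLOCK and BMAL1, follows a rhythm like that of the Per transcripts. The heart clock sets daily rhythms of cardiac metabolism and of responses to hormones.

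RNA from 15 hearts was hybridised to Agilent 1-colour arrays, 1 mouse to an array. The mice were of strain C57BL/6, with no other allele named, and 8 to 10 weeks old at the start. Meth was injected into the abdomen each week in doses that rose by 2 mg per week to 40 mg/kg at week 20, and PBS was given on the same schedule. There were 4 males and 4 females given meth, and 4 males and 3 females given PBS. Each male group held 2 mice of trial 1 and 2 mice of trial 2. All females were placed in trial 1 by their titles, while another label put 3 of them (meth mice 3 and 4 and PBS mouse 3) in trial 2. The male meth hearts came from mice that survived to the end of dosing. The hour of killing, which bears on any clock gene, is not given in the sources used here, and whether the groups were collected at the same hour was not tested.

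Signals are given as normalized log2 signal, the log2 of a probe's background-subtracted brightness minus the 75th percentile of its array, so that 0 is the signal at that percentile. The 75th percentile lay between 323.2 and 424.1 brightness units on slides 1 to 3 and between 460.7 and 618.0 on slide 4, and each array had 61.3% to 71.4% of its probes well above background. All 4 slides held both treatments. The trial 2 males filled slide 3, so trial and slide cannot be told apart in males. Xist and Ddx3y, transcripts of the X and Y chromosomes, matched the labelled sex on all 15 arrays. All 8 cardiomyocyte markers were well above background in every group, and none of them was called (adjusted p under 0.05 in limma) in either sex. The unadjusted p was under 0.05 for 1 of the 8, Nppa, in each sex. Of the 28358 probes tested it was so for 3618 in males and 3133 in females.

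The genes lie in GRCm38.p6 at chr11:69095108-69109965 (Per1), chr1:91415977-91459351 (Per2), chr4:150997018-151044707 (Per3), chr10:85131700-85185054 (Cry1), chr2:92403646-92434085 (Cry2) and chr3:95878500-95882257 (Ciart). Promoter sequences are shown because the members are targets of the loop they repress. Entries of the RefSeq promoter table (GRCm38.p6, 250 bases before to 50 after each start) were used for Per1, Per3, Cry1, Cry2 and Ciart. Promoter sequence of Per2 was not used here. Both Per1 windows (chr11:69098699-69098998 and chr11:69099902-69100201, plus strand) lie inside the span of the gene given above. Bases before the Per1 span were therefore not searched. The E-box CACGTG, which reads the same on both strands, stood 3 times in the Ciart promoter and once in that of Cry1. It also stood once in the window of the first of these 2 Per1 starts. It was absent from the windows of Per3, Cry2 and the second Per1 start. Of all 32851 promoters in the table, 7.15% held this E-box and 0.0883% held it 3 or more times. The D-box TTATGTAA, the sequence bound by DBP, TEF and HLF, stood 2 times in the Per3 promoter and in no other window of these genes. On either strand it was found in 0.938% of all promoters, and 2 or more times in 0.0213%. The cyclic AMP response element TGACGTCA was in none of these windows and in 1.79% of all promoters. Bases are printed 5′ to 3′ along each gene's own strand, with the E-boxes or D-boxes in capitals: Ciart at chr3:95882258-95882478 on the minus strand, Per3 at chr4:151044708-151044915 on the minus strand, and 30 bases around the E-boxes of Cry1 (chr10:85185097-85185126, minus strand) and Per1 (chr11:69098771-69098800, plus strand).
Ciart: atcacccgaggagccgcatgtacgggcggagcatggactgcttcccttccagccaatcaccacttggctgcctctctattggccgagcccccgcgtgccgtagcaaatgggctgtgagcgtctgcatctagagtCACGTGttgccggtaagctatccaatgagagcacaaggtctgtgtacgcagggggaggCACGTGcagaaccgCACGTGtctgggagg
Per3: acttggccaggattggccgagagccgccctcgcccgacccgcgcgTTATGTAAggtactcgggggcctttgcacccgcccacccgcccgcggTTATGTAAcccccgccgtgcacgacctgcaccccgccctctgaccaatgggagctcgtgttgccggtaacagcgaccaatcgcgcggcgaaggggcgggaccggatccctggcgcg
Cry1: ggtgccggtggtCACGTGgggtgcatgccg
Per1: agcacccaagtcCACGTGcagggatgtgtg

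In the males, 5 of the 6 repressors were called higher after meth, and in the females 1 of the 6 was (limma, trial as a covariate, Benjamini-Hochberg adjusted over 28358 probes). The changes of all 6 were positive in each sex, and 5 of the 6 had an unadjusted p under 0.05 in each. That held for 3618 probes in males and 3133 in females. Here and below, a gene that rose or fell is one that was called. The limma test called 0.804% of all probes higher in males and 0.205% higher in females. The median log2 fold change of the 6 genes was 1.27 in males and 0.77 in females, against medians of -0.03 and 0 over all probes tested. In the mean of the male and female responses 5 of the 6 repressors rose, where 1.14% of probes were called higher. Every male meth array was above every male PBS array for 5 of the 6 genes, which held for 4.73% of probes tested. In females this held for 4 of the 6, against 3.12% of probes.

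**Figure D1:**
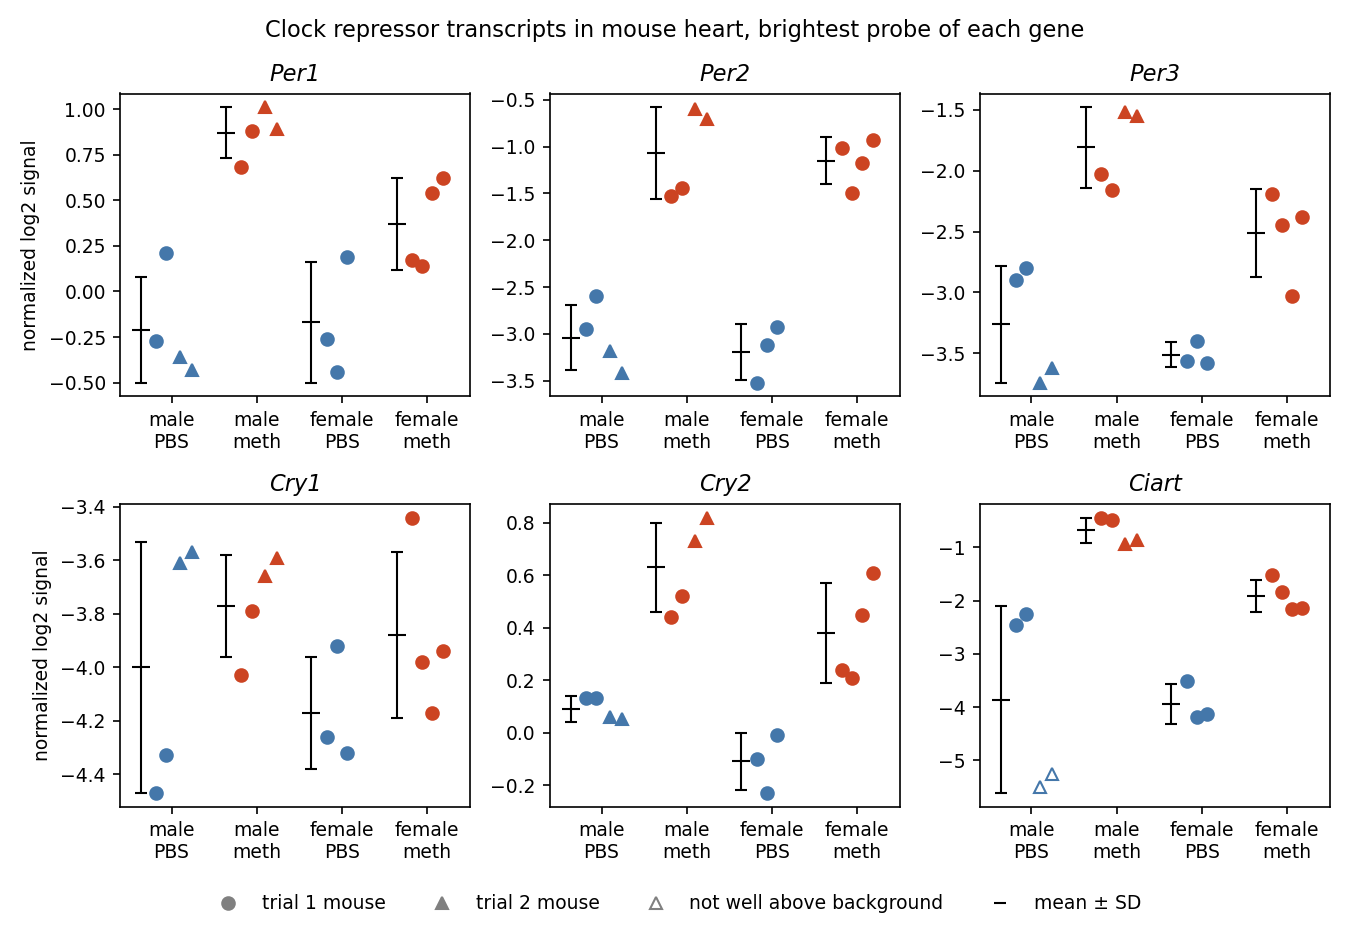
Normalized log2 signal of the brightest probe of each repressor in each of the 15 hearts, by sex and treatment. Circles are trial 1 mice, triangles trial 2 mice, open symbols arrays on which the probe was not well above background, and black bars the mean ± SD of the group; the scales differ between genes. The meth and PBS points of males separate for all genes but Cry1, and the 2 open Ciart points are the trial 2 PBS males.

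Among the period genes, Per2 rose in both sexes. PER2 is a scaffold of the nuclear repressor complex. In males given meth the normalized log2 signal of Per2 was -1.53 and -1.44 in trial 1 and -0.60 and -0.70 in trial 2. In males given PBS it was -2.95 and -2.60 in trial 1 and -3.18 and -3.42 in trial 2. All meth values were above all PBS values, and the treatments lay further apart in trial 2. In females the meth hearts read -1.01, -1.49, -1.17 and -0.93 and the PBS hearts -3.52, -3.12 and -2.93. The female groups were apart as well, and the female meth values fell within the range of the male ones.

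The log2 fold change of Per2 in males was 1.97 ± 0.24 (SE, 4 against 4, 3.92-fold, limma adjusted p = 0.00194). In females it was 2.04 ± 0.26 (4 against 3, 4.12-fold, adjusted p = 0.00728). Within every slide and sex the meth hearts were above the PBS hearts, by 1.16 to 2.65. With slide as a block the female change was 2.00 and was called (limma adjusted p = 0.0122). The arrays of a female replicate number also share a slide. With that number as a block the female change was 1.97 and missed the threshold (adjusted p = 0.0744). Female meth mouse 4 has no PBS mouse of its number and adds nothing to that change. With normexp background correction the log2 fold change was 1.12 in males and 1.25 in females, and both were called (adjusted p = 0.00619 and 0.00729). The other Per2 probe differed less. It read -3.51 ± 0.14 (SD, n = 4) in male meth and -3.80 ± 0.30 (n = 4) in male PBS hearts, with a log2 fold change of 0.28 ± 0.22 (SE, adjusted p = 0.642). In females its fold change was 0.23 ± 0.23 (adjusted p = 0.819), and its meth and PBS arrays overlapped in both sexes. The mean of both Per2 probes had a change of 1.13 in males (limma adjusted p = 0.0194) and 1.14 in females (adjusted p = 0.0307). Which part of the Per2 transcript each probe covers is not given in the sources used here.

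Per1, a period gene that hormones induce quickly in many tissues, rose in males. Its normalized log2 signal in male meth hearts was 0.68, 0.88, 1.01 and 0.89, the first 2 values from trial 1. In male PBS hearts it was -0.27, 0.21, -0.36 and -0.43. The groups did not overlap, and the log2 fold change was 1.08 ± 0.17 (SE, 2.11-fold, limma adjusted p = 0.0111). Female meth hearts read 0.17, 0.14, 0.54 and 0.62, and female PBS hearts -0.26, -0.44 and 0.19. Female PBS mouse 3 was above meth mice 1 and 2, and this overlap crossed slides, since within each slide the meth hearts were higher by 0.39 to 0.58. The female change of 0.54 ± 0.19 did not pass (adjusted p = 0.262).

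Per3, whose product is the least required for the rhythm itself, also rose in males. Male meth hearts read -2.03 and -2.16 in trial 1 and -1.52 and -1.55 in trial 2, and male PBS hearts -2.90 and -2.80 in trial 1 and -3.74 and -3.62 in trial 2. The groups were apart in each trial, with trial 2 higher after meth and lower after PBS. Over both trials the log2 fold change was 1.45 ± 0.24 (SE, 2.73-fold, limma adjusted p = 0.0148). This call was lost when any 1 of the 4 trial 2 male arrays was left out (highest adjusted p = 0.0622), and in 10 of 32 alternatives in all. With normexp background correction the change was 0.75 and was not called (adjusted p = 0.263). Female meth hearts read -2.19, -2.45, -3.03 and -2.38, and female PBS hearts -3.56, -3.40 and -3.58. These did not overlap, and female meth mouse 3 was the nearest to the PBS hearts. The female change was 1.00 ± 0.26 (2.00-fold, adjusted p = 0.116), which did not pass.

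Of the cryptochromes, which stabilise the repressor complex and contact CLOCK and BMAL1 directly, Cry2 rose in males by less than any called period gene. Male meth hearts read 0.44, 0.52, 0.73 and 0.82 and male PBS hearts 0.13, 0.13, 0.06 and 0.05, trial 1 first. The PBS hearts lay close together and below all meth hearts, and the log2 fold change was 0.54 ± 0.10 (SE, 1.45-fold, limma adjusted p = 0.031). The call was lost in 16 of 32 alternatives, among them leaving out any 1 of 8 arrays, which gave adjusted p up to 0.115. These 8 were male meth mouse 2 and both male PBS mice of trial 1, female PBS mouse 1, and the 4 trial 2 males. Female meth hearts read 0.24, 0.21, 0.45 and 0.61, and female PBS hearts -0.10, -0.23 and -0.01. These did not overlap either, and the change of 0.49 ± 0.11 (1.41-fold) did not pass (adjusted p = 0.0709). The dim second Cry2 probe was well above background on 13 of 15 arrays and gave 0.38 ± 0.17 in males and 0.15 ± 0.18 in females (adjusted p = 0.367 and 0.857).

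Cry1 did not separate the treatments. Its brightest probe read -4.03 to -3.59 in male meth, -4.47 to -3.57 in male PBS, -4.17 to -3.44 in female meth and -4.32 to -3.92 in female PBS hearts. The log2 fold change in males was 0.23 (95% CI -0.11 to 0.57, limma adjusted p = 0.596), and that in females was 0.29 (-0.08 to 0.66, adjusted p = 0.605). Both intervals lie below the change of the brightest Per2 probe in the same sex, and both hold that of the other Per2 probe. In trial 1 the male meth hearts (-4.03 and -3.79) were above the PBS hearts (-4.47 and -4.33), whereas in trial 2 the meth hearts (-3.66 and -3.59) and PBS hearts (-3.61 and -3.57) lay together. The second Cry1 probe had changes of -0.10 ± 0.16 in males and 0.16 ± 0.17 in females, neither past the threshold (adjusted p = 0.854 and 0.823).

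Ciart, the small repressor formerly named Gm129, had the largest male change of the 6 genes. Its normalized log2 signal in male meth hearts was -0.45 and -0.49 in trial 1 and -0.93 and -0.86 in trial 2. In male PBS hearts it was -2.46 and -2.25 in trial 1 and -5.49 and -5.25 in trial 2. All meth hearts were above all PBS hearts, and the 2 trial 2 PBS hearts stood far below the rest and were not well above background. The log2 fold change over both trials was 3.18 ± 0.40 (SE, 9.06-fold, limma adjusted p = 0.00245), a value that includes the 2 arrays below background. With normexp background correction it was 1.55 (adjusted p = 0.00126). The call was lost with only male arrays in the fit (adjusted p = 0.0547). In trial 1, where all 4 male arrays measured it, Ciart was 3.68-fold higher after meth (1.88 ± 0.24, adjusted p = 0.00727). In trial 2 it was 18.5-fold higher when each PBS array was given the lowest signal of any probe well above background there (fitted change 4.48 ± 0.24, adjusted p = 2.25e-05). That signal is not the detection limit of the Ciart probe, so 18.5-fold is not a lower bound. On trial 2 male PBS mouse 2 the second Cry2 probe, at -4.68, was not well above background either.

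In females Ciart read -1.52, -1.83, -2.15 and -2.14 after meth and -3.51, -4.18 and -4.12 after PBS, with every array well above background. The groups did not overlap. The log2 fold change was 2.03 ± 0.44 (SE, 4.07-fold), with a limma adjusted p of 0.0573 that missed the threshold. With normexp background correction it was 0.98 (adjusted p = 0.0969). With the trial 2 males left out, the same change passed (adjusted p = 0.00683). With the replicate number as a block it was 2.10 and did not (adjusted p = 0.177).

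**Figure D2:**
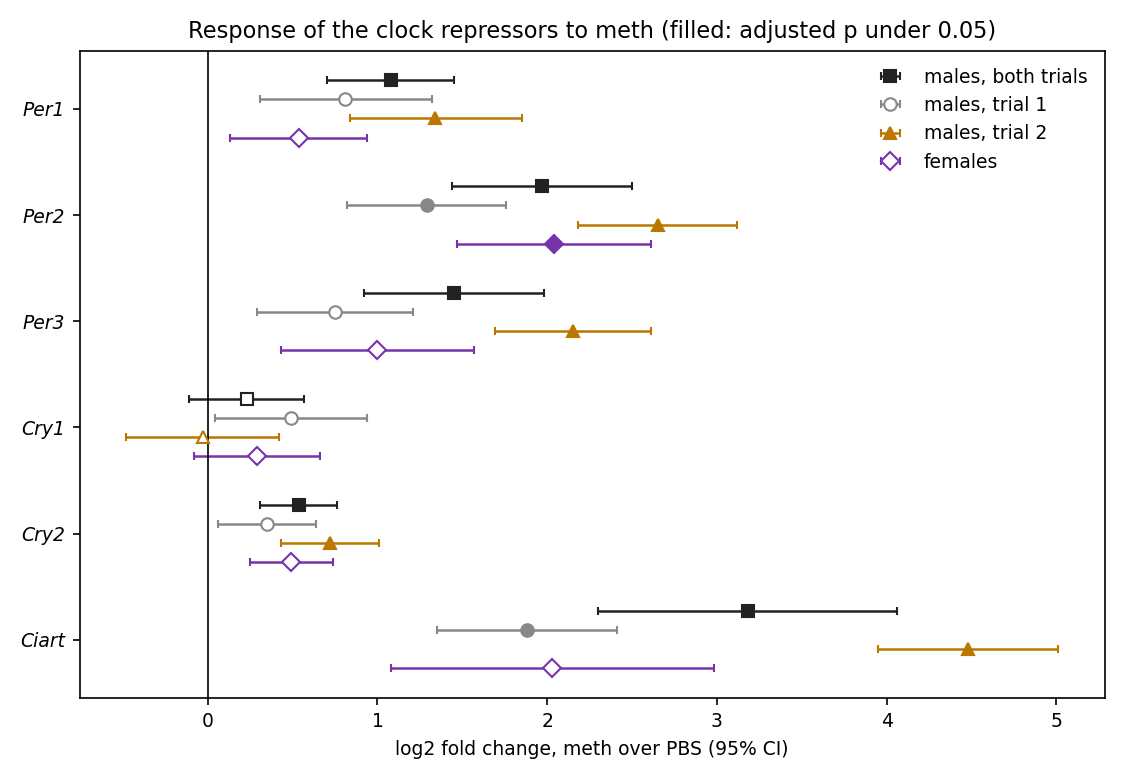
Log2 fold change of meth over PBS with its 95% confidence interval for the brightest probe of each repressor, in males of both trials, males of each trial and females. Filled symbols passed an adjusted p of 0.05; the values of Ciart run from 1.88 in trial 1 to 4.48 in trial 2, and those of Cry1 from -0.03 to 0.49. The trial 2 value of Ciart rests on PBS arrays below background.

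Two-sided exact permutation tests of single genes, 12 in all and not adjusted, gave the smallest p that these group sizes allow (0.0286) for Per1, Per2, Per3, Cry2 and Ciart in males and for Per2, Cry2 and Ciart in females. In females the exact p was 0.0571 for Per3 and 0.114 for Per1, and for Cry1 it was 0.4 in males and 0.2 in females. Each array is the heart of 1 mouse by its label. Arrays of a sex were regrouped across slides, and in males across trials. These values therefore measure the spread between mice, arrays and slides together, and in males also between trials.

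The male response was then taken within each trial, from a fit with a group for every sex, treatment and trial. In trial 1, 2 of the 6 repressors rose (0.282% of probes were called higher), Per2 by 1.29 ± 0.22 (SE, adjusted p = 0.034) and Ciart as above. In trial 2, 5 of the 6 rose (0.222% of probes): Per1 by 1.34 ± 0.23, Per2 by 2.65 ± 0.22, Per3 by 2.15 ± 0.21, Cry2 by 0.72 ± 0.13 and Ciart. Each of these was larger in trial 2 than in trial 1. The difference between the trials was called for 0 of the 6 and for 0% of all probes by limma. At an unadjusted p under 0.05 there were 1276 of 28358 probes and 3 of the 6 repressors. These were Per2 (difference 1.36, 95% CI 0.69 to 2.03), Per3 (1.39, 0.75 to 2.04) and Ciart (adjusted p = 0.0844). No size is given for the Ciart difference, since Ciart was not well above background on the trial 2 PBS arrays.

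The trials differed already among mice given PBS. Ciart was lower in trial 2 than in trial 1 PBS males (fitted change -3.02 ± 0.24, limma adjusted p = 0.000812). It was the 1 of 6 repressors called, where 0.476% of probes were. With the trial 2 arrays set to the lowest signal of any probe well above background, the fold was 6.73, which is not a lower bound. The unadjusted p was under 0.05 for 4 of the 6 repressors and for 4056 of 28358 probes. Besides Ciart these were Per2 (-0.52 ± 0.22, limma adjusted p = 0.298), Per3 (-0.83 ± 0.21, adjusted p = 0.104) and Cry1 (0.81 ± 0.20, adjusted p = 0.106). The changes of Per2, Per3 and Cry1 did not pass, and that of Cry1 had the opposite sign. Between the trials of male meth hearts 0 of the 6 were called, where 0.303% of probes were. At an unadjusted p under 0.05 there were 3936 of 28358 probes and 3 of the 6. The largest of these differences was that of Per2, 0.84 ± 0.22 higher in trial 2 (adjusted p = 0.131). Female PBS hearts were also below the trial 1 male PBS hearts for Ciart, by 1.58 ± 0.22 (limma adjusted p = 0.0111), the 1 of 6 called there, where 0.349% of probes were. The male PBS hearts of trial 1, the female PBS hearts and the male PBS hearts of trial 2 formed 3 separate levels of Ciart.

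The responses of the sexes were compared directly. Over both male trials 0 of the 6 repressors differed in their response between the sexes, where 0.138% of probes were called. At an unadjusted p under 0.05 there were 2437 of 28358 probes and 0 of the 6. The widest interval was that of Ciart (male minus female 1.15, 95% CI -0.14 to 2.45, with the 2 PBS arrays below background included), and for Per2 it was -0.07 (-0.85 to 0.70). Against the trial 1 males alone, 0 of the 6 female responses differed, where 0.0952% of probes were called. At an unadjusted p under 0.05 there were 1901 of 28358 probes and 1 of the 6. The Ciart difference there was 0.15 (female minus male, 95% CI -0.52 to 0.81). Against the trial 2 males, 1 of the 6 differed (0.0176% of probes): the Ciart response was 2.45 ± 0.30 smaller in females (adjusted p = 0.0358), with the trial 2 PBS level of Ciart below background. Sex cannot be told apart from trial and slide in that comparison.

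Within a treatment, 0 of the 6 differed between male and female PBS hearts, where 0.473% of probes were called. At an unadjusted p under 0.05 there were 4311 of 28358 probes and 0 of the 6. Between male and female meth hearts 1 of the 6 differed, Ciart (2.63% of probes). The unadjusted p there was under 0.05 for 3 of the 6 and for 5241 of 28358 probes. All male meth values of Ciart were above all female ones. The trial term of the fit was shared with the PBS males, whose 2 trial 2 arrays were not well above background for Ciart. With that term the fitted difference was 2.08 ± 0.45 (SE, limma adjusted p = 0.0325), so this call draws on those arrays. The fitted difference was 1.43 among trial 1 arrays alone (adjusted p = 0.0217). Without the trial term it was 1.23 and did not pass (adjusted p = 0.286), with slide as a block it was 1.89 and did not pass (adjusted p = 0.0843) while Per1 did (0.79, adjusted p = 0.0301), and the call was lost when any 1 of 5 arrays was left out (male meth mouse 2 and male PBS mouse 1 of trial 1, male PBS mouse 2 of trial 2, or female meth mouse 3 or 4). By mean level the order of the groups was male meth, female meth, male PBS and female PBS for Per2, Per3, Cry1, Cry2 and Ciart, and for Per1 the PBS groups changed places. The male and female PBS groups overlapped for all of these genes but Cry2, and the male and female meth groups overlapped for Per2, Cry1 and Cry2. How many of all probes are without overlap between the sexes was not computed, so this only describes the values.

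Arntl, which encodes the activator BMAL1 that the repressors act on, moved the other way. It read -1.14 and -1.54 in male meth hearts of trial 1, -2.21 and -2.29 in those of trial 2, and -1.72, -0.79, -0.70 and -1.65 in female meth hearts. In PBS hearts it was 0.07 and 0.18 in males of trial 1, 1.01 and 1.14 in males of trial 2, and 0.52, 0.58 and 0.68 in females. No meth heart overlapped a PBS heart, and the male log2 fold change was -2.40 ± 0.34 (SE, limma adjusted p = 0.00513). In females it was -1.81 ± 0.36 (adjusted p = 0.0435). The 3 PBS levels of Arntl had the reverse order of those of Ciart: the male PBS hearts of trial 2 were highest for Arntl and lowest for Ciart, and those of trial 1 the opposite. Since the arrays fall into clusters by treatment, sex and trial, with 2 to 4 mice in each, no correlation with Arntl was computed.

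**Figure D3:**
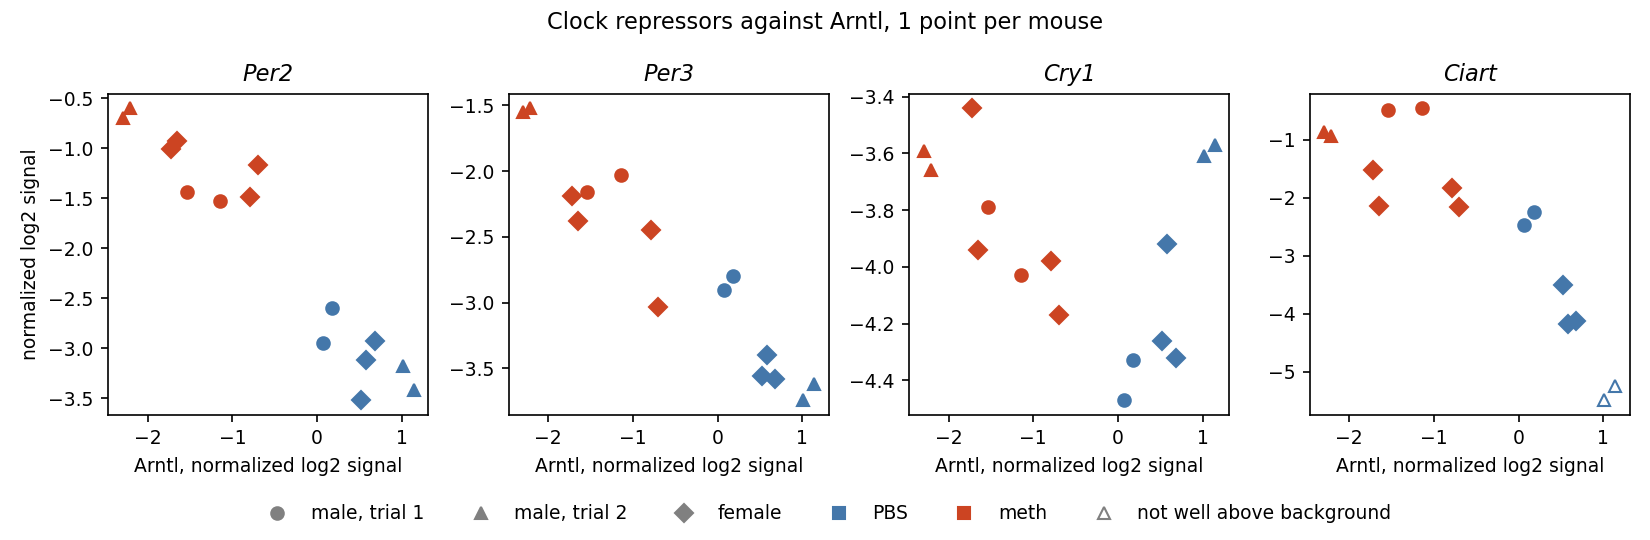
Normalized log2 signal of Per2, Per3, Cry1 and Ciart against that of Arntl, 1 point per mouse, coloured by treatment and shaped by sex and trial; open triangles are arrays on which Ciart was not well above background. Meth hearts lie at low Arntl (-2.29 to -0.70) and PBS hearts at high Arntl (0.07 to 1.14). Within a sex, Cry1 is the gene of the 4 in which the treatments overlap. Across the sexes Per3 overlaps too, with female meth mouse 3 (-3.03) below the trial 1 male PBS hearts (-2.90 and -2.80).

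The genes around the repressors were described by lists, each gene by its brightest probe. Of the 3 clock activators tested, Arntl fell in each sex and Clock, the partner of BMAL1, had changes of -0.50 ± 0.11 in males (limma adjusted p = 0.0593) and -0.35 ± 0.12 in females (adjusted p = 0.26). Clock fell in the mean of the sexes (-0.43 ± 0.08, adjusted p = 0.0193). Npas2, which can stand in for CLOCK, was well above background on 1 of 15 arrays and was not tested. Among the 8 REV-ERB, PAR bZIP and DEC genes, which like the repressors are direct targets of CLOCK and BMAL1 or part of the second loop, 3 rose in males, 1 in females and 6 in the mean of the sexes, and none fell. The PAR bZIP factors Dbp (1.57 ± 0.25, adjusted p = 0.0105), Tef (0.87 ± 0.13, adjusted p = 0.00602) and Hlf (0.87 ± 0.17, adjusted p = 0.0314) were those called in males, and Tef (0.97 ± 0.14, adjusted p = 0.00878) in females. Nfil3, which competes with them for the D-box, had changes of -0.81 ± 0.24 in males and -0.42 ± 0.25 in females that did not pass (adjusted p = 0.156 and 0.615). The median log2 fold change of these 8 genes was 0.66 in males and 0.57 in females.

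Genes that act on the PER and CRY proteins differed less. Of 10 kinase, phosphatase and ubiquitin ligase genes tested, 0 were called in either sex, and 1 in the mean of the sexes. At an unadjusted p under 0.05 there was 1 in each sex, Usp2, a deubiquitinase and clock output, with 0.56 ± 0.20 in males and 0.75 ± 0.22 in females. Usp2 was also the gene called in the mean (0.66 ± 0.15, limma adjusted p = 0.0396). None of the 6 other components of the PER and CRY complex was called in males, females or their mean, with 0 at an unadjusted p under 0.05 in each. The 3 ROR activators had 0 calls in each sex (1 at an unadjusted p under 0.05 in males and 0 in females).

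Signals known to induce Per1 from outside the loop were described in the same way. The 9 CREB and immediate early genes had 0 calls in either sex, with 1 at an unadjusted p under 0.05 in each (Nr4a1 in males, Egr1 in females, both with negative changes). Of 7 genes of the glucocorticoid list, 2 rose in males: Tsc22d3 by 0.53 ± 0.10 (limma adjusted p = 0.0287) and Mt2 by 0.90 ± 0.17 (adjusted p = 0.0243). At an unadjusted p under 0.05 there were 4 in males, with Fkbp5 (0.48 ± 0.14) and Klf9 (0.23 ± 0.09) added. In females 0 were called and 2 had an unadjusted p under 0.05, Tsc22d3 (0.41 ± 0.11) and Mt2 (0.71 ± 0.18). The list's median log2 fold change was 0.23 in males and 0.07 in females.

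**Figure D4:**
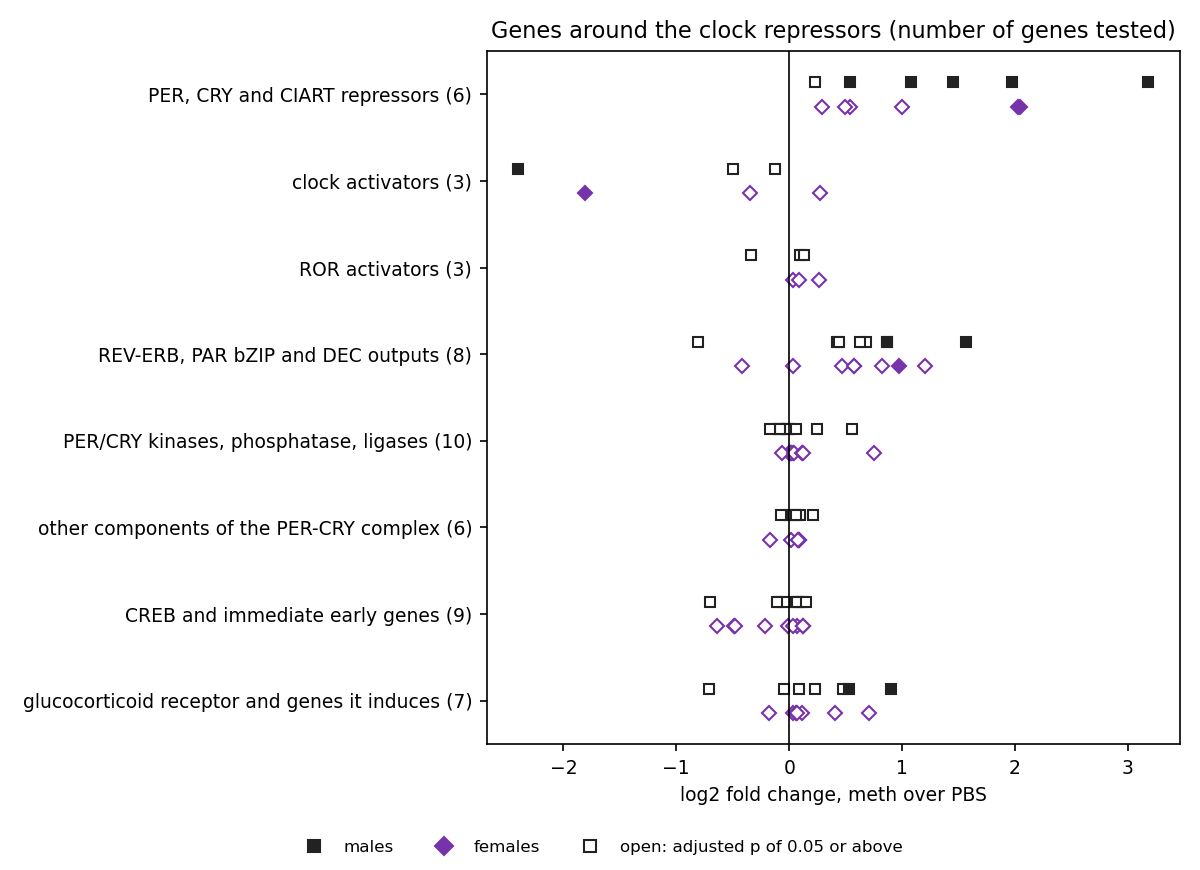
Log2 fold change of meth over PBS for the 6 repressors and for 7 lists of genes around them, in males (squares) and females (diamonds), with filled symbols for an adjusted p under 0.05 and the number of genes tested in brackets. The repressors lie to the right of 0 in both sexes, Arntl at -2.40 and -1.81 is the leftmost gene, and the complex components lie near 0.

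The genes whose signal over the 15 arrays was most like that of each repressor were found among 12600 other genes well above background on all arrays. This is a description, since most of the spread that r measures is the step between meth and PBS. For Ciart they were Dbp (Pearson's r = 0.972, compared among 12601 genes), Pld1 (0.951) and Rhebl1 (0.95). For Per2 they were Fam76a (0.947), Mthfd1l (0.945) and Tef (0.938), and for Per3 Ackr4 (0.951), Rhebl1 (0.948) and Fam76a (0.944). Per1 was most like Gstt2 (0.944), Cry2 (0.912) and Slc43a1 (0.911), and Cry2 most like Fmo2 (0.933), the DEC gene Bhlhe41 (0.916) and Per1. Rhebl1 and Fam76a were each named for 2 repressors. Cry1 stood apart, with Rnf145 (0.87), Ankib1 (0.842) and Crim1 (0.841) as its nearest genes and r between 0.04 and 0.38 with the other 5 repressors, which had r of 0.76 to 0.91 among themselves.

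Heart tissue is a mixture, and fewer cells of a type and less RNA per cell cannot be told apart in these samples. Airway epithelium markers were high in the male meth hearts, where 6 of the 8 tested rose (median log2 fold change 4.25). The summed signal of the 9 measured, in units of the array's 75th percentile, was 31.6 to 160 in male meth and 0.772 to 0.955 in male PBS hearts. Their part in the male changes of the repressors was not tested. In females the sums overlapped, 1.41 to 4.20 after meth and 1.87 to 3.32 after PBS, with 1 of the 8 called higher, Bpifa1 (limma adjusted p = 0.0108, not well above background on any female PBS array), and Foxj1, Cdh1 and Epcam not well above background on any female array. Their part in the female changes was not tested either. Of the fat, red blood cell and leukocyte markers none was called in either sex, and at an unadjusted p under 0.05 there were 1 fat marker in males, and 2 fat and 1 red blood cell marker in females. The summed fat signal overlapped between meth and PBS in males (28.7 to 88.5 and 29.6 to 77.8) and in females (34.0 to 43.1 and 25.2 to 38.0).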

How the data were processed

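Heart RNA was labelled with Cy3 by the authors, hybridised to Agilent 1-colour mouse arrays, and read with Feature Extraction (9.1 in the labels, 10.5.1.1 in the file headers). The deposited intensity of each spot is background-subtracted and not normalized between arrays. A deposited table of log2 values, which equals these signals on the log2 scale plus a constant per array, served as an alternative.

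Control and outlier spots were left out, spots of a probe were averaged on the log2 scale, and the 75th percentile of each array was subtracted. Of the 41174 probes, those flagged well above background on 3 or more arrays (28358) were tested with limma 3.58.1 in R 4.3.3, in a single fit over all 15 arrays with the 4 groups and the trial of the sample title, and two-sided p-values were adjusted by Benjamini-Hochberg over all of them, with a threshold of 0.05. Contrasts within a trial came from a fit with trial in the group. A gene is given by its brightest probe unless stated. Precision is limited by the number of arrays. Accessions were matched to symbols through RefSeq (GRCm38.p6). Genes named are the members, genes of the lists, and the 3 genes most like each member. The members and lists were chosen with earlier results of these data known. List genes without a matched probe were Crtc1, Zbtb16, Cd68, Hbb-b1 and Scgb3a2. Arrays of a group correlated at 0.988 to 0.997. The fit was tested on simulated data with independent noise, which held no slide effect apart from trial and no background floor.

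Pairing by replicate number was checked from the deviations of arrays from their group and trial means, correlated between meth and PBS arrays that share a number. In females r was 0.30, 0.44 and 0.66. The meth and PBS arrays of each female number share a slide of their own. Pairing by number and a shared slide therefore cannot be told apart in females. In males r was -0.09 in trial 1, where arrays of a number also share a slide, and 0.01 in trial 2, where all arrays share slide 3. With 2 arrays per group and trial, both numbers of a trial must give the same r. Whether the numbers pair the male arrays therefore cannot be decided. Alternatives were normexp (offset 50), quantile and median scaling, the deposited log2 table, a floor, other filters, other treatments of trial, slide or replicate number, subsets of arrays, each array left out, gene means, and the methods' t-test. Matplotlib 3.10.9 (Python 3.11.15) drew the plots.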

Additional observations from a re-analysis of the deposited data

Results flagged for a closer look

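The Ciart response to meth differed between females and trial 2 males by a test of the difference itself: it was -2.45 log2 units in females relative to those males (SE 0.30, limma adjusted p = 0.0358), and 0.15 relative to trial 1 males (adjusted p = 0.999). The trial 2 PBS hearts, on which this difference rests, read -5.49 and -5.25 for Ciart and were not well above background.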

How the results depend on the processing

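The 5 male calls became 3 with normexp background correction (Per3 and Cry2 lost), 1 with trial 1 arrays only (Ciart) and 2 with only male arrays (Per1 and Per2). They became 3 to 5 when single arrays were left out (3 without any 1 of the trial 2 males). By either form of the methods' t-test 0 were called, with 5 of the 6 at an unadjusted p under 0.05. So were 4233 of 28358 probes in the paired form and 3733 in the unpaired form. Apart from the replicate block, 4 or 5 were called in the other alternatives, and the trial 2 contrast, added after seeing the data, called 5. The 1 female call, Per2, became 2 with Cry2 added when arrays were shifted by their median, when the filter asked for all arrays, with the other trial label or with slide as a block, and 2 with Ciart added under a floor, with trial 1 arrays only or with only female arrays. It stayed at 1 when any array was left out, and became 0 by either t-test. At an unadjusted p under 0.05 there were 4 of the 6 in both forms, with 2829 probes in the paired form and 2364 in the unpaired form. The mean response had 3 calls with trial 1 arrays only and 4 or 5 otherwise. The comparison of PBS hearts had 1 call, Ciart, with trial 1 arrays only. The comparison of meth hearts went from 1 call to 0 without a filter, with only probes above background on all arrays (which leaves Ciart untested), without a trial term or with the other trial label, and ranged from 0 to 1 when single arrays were left out. With slide as a block it kept 1 call, but of Per1 in place of Ciart. No call changed sign in any alternative. The cause of these changes was not tested.

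With the replicate number as a block, 2 male calls (Per1 and Per2) and 0 female calls were left, with 5 in the mean response. Whether the male numbers pair arrays within a trial could not be decided, and female numbers cannot be told apart from slides. The sexes cannot be compared within a treatment under that block. Signals near background limit Ciart in trial 2 PBS males, where its folds depend on the floor chosen, and Npas2, which was not tested.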
